A study of Homo sapiens with 78 samples.

Results

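IL-1β-treated A549 cells were compared with cells that were not stimulated (NS) after 6 h of culture, at the level of every measurable mRNA. The comparison used the 4 IL-1β libraries and the 3 labelled NS libraries of that time (replicates 1, 2 and 4), which are 7 of the 78 poly(A) RNA libraries of a time course that also included budesonide, a glucocorticoid, alone and with IL-1β. A549 cells are epithelial, come from a human lung carcinoma and are used worldwide as an established line. Here they were wild type and held overnight without serum before treatment. The IL-1β cells received 1 ng/ml of recombinant human IL-1β for 6 h. The NS cells received neither agent. As 1 carcinoma line in culture, both groups lack the leukocytes and stromal cells of an airway. The labels speak of independent experiments, so p-values here measure the spread between those experiments in this line. That spread was pooled over all 20 groups of the series, without pairing by replicate number, so same-numbered libraries were treated as independent.

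IL-1β is a cytokine of innate immunity. Its receptor passes the signal through MYD88 and IRAK kinases to the IKK complex, which marks IκB proteins for destruction and so frees nuclear factor κB (NF-κB) dimers to enter the nucleus, while MAPK pathways act in parallel on AP-1 factors. In airway epithelial cells the pathway is known for the release of chemokines that call in neutrophils, and for feedback genes such as NFKBIA and TNFAIP3 that restrain NF-κB itself. Interferon-stimulated genes belong to a different arm, driven by type I or III interferons through factors such as STAT2 and IRF9, which bind an element named the ISRE.

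Promoter sequences of strongly upregulated genes are shown because the elements of both arms can be read in them. Windows from 250 bases before to 50 bases after the gene start were taken from RefSeq (GRCh38.p14), and 10832 of the 13327 genes tested had one. Both strands were searched for the NF-κB consensus, for the ISRE core TTTCNNTTTC, and for the AP-1 element TGANTCA. A match on the opposite strand is written as it stands on the strand of the gene, and matches of different motifs may overlap. Each line below gives letters 5′ to 3′ on the gene's strand, with the match in capitals. CXCL1 (chr4:73869304-73869333, plus strand), CXCL2 (chr4:74099254-74099283, minus strand), CCL20 (chr2:227813753-227813782, plus strand), NFKBIA (chr14:35404811-35404840, minus strand), TNFAIP3 (chr6:137867182-137867211, plus strand) and BIRC3 (chr11:102317339-102317368, plus strand) hold an NF-κB match whose first base lies 79 bases before the gene start for CXCL1 and CCL20, 78 for CXCL2, 81 for NFKBIA, 67 for TNFAIP3 and 135 for BIRC3. IFIT1 (chr10:89392497-89392526, plus strand), ISG15 (chr1:1013380-1013409, plus strand) and GBP1 (chr1:89065316-89065345, minus strand) hold an ISRE core that begins 116, 107 and 127 bases before the start. CXCL8 (chr4:73740422-73740448, plus strand) holds an AP-1 match that begins 137 bases before it.
CXCL1, NF-κB: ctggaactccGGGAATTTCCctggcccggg
CXCL2, NF-κB: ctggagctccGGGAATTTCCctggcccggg
CCL20, NF-κB: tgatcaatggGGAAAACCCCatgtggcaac
NFKBIA, NF-κB: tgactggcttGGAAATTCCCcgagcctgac
TNFAIP3, NF-κB: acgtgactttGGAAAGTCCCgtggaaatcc
BIRC3, NF-κB: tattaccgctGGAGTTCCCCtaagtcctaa
IFIT1, ISRE core: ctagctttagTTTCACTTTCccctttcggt
ISG15, ISRE core: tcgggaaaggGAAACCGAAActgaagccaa
GBP1, ISRE core: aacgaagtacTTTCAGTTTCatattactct
CXCL8, AP-1: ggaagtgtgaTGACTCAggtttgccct

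Over all windows, 6.62% held the NF-κB consensus, 2.89% the ISRE core and 4.69% the AP-1 element. Among the 532 upregulated genes with a window the shares were 15.0%, 12.2% and 8.83%, and among the 467 downregulated genes they were 7.49%, 1.07% and 5.14%. The NF-κB consensus was in 7 of 19 windows of NF-κB feedback genes and in 5 of 7 of neutrophil-attracting chemokines. It was also in 6 of 16 windows of MHC class I genes and in 5 of 36 of interferon-stimulated genes. The ISRE core was in 23 of 36 windows of interferon-stimulated genes, in 9 of 16 of MHC class I genes and in 0 of the feedback gene and neutrophil-attracting chemokine windows. These shares describe letters and were not tested.

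mRNA levels are given in TPM, a measure of transcript abundance scaled to transcript length and library size, as the authors normalized them between libraries. Library sums lay between 853880 and 908171 TPM in IL-1β cells and between 827213 and 848982 TPM in NS cells. Mitochondrially encoded mRNAs made up 12.7 to 14.1% of the sum in IL-1β libraries and 14.5 to 15.0% in NS libraries. The values carry no counts, so the depth of each library and its counting error cannot be read from them. Keratin mRNAs of simple epithelium were abundant, but the surfactant genes SFTPA1, SFTPA2, SFTPB, SFTPC and SFTPD were below 1 TPM in all 7 libraries and NKX2-1, the lung lineage factor, was at or near 0, so these markers of alveolar type II cells were scarce or at 0. ABCA3, a surfactant lipid transporter gene of the same list, was at 9.32 to 9.68 TPM in IL-1β cells and 9.16 to 10.5 TPM in NS cells. A gene was called where the limma adjusted p was at most 0.05 and the log2 fold change, computed on TPM plus 0.5, was at least 1 in size. That scale understates the change of scarce mRNAs. Values after ± are the SE for a log2 fold change and the SD for a mean level.

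IL-1β upregulated 695 of the 13327 genes (5.21%) and downregulated 641 (4.81%). The upregulated side was much the steeper. A log2 fold change of at least 3 in size was reached by 111 upregulated genes and by 0 downregulated genes. The median was 1.61 for upregulated genes, -1.24 for downregulated genes and -0.07 over all genes. Upregulated mRNAs took up 6.87 to 7.72% of all TPM in IL-1β libraries and 1.90 to 2.01% in NS libraries. Downregulated mRNAs took up 0.356 to 0.397% in IL-1β libraries and 1.01 to 1.05% in NS libraries. The median level of downregulated mRNAs was 2.16 TPM in IL-1β cells and 6.37 TPM in NS cells, and 273 of the 641 were under 5 TPM in both groups. The count of falls depended on the pseudocount, with 415 at 1 TPM and 1015 at 0.1 TPM. At least 1 TPM in every IL-1β library and less than 1 TPM in every NS library was seen for 140 genes, and the converse for 185. The groups did not overlap for 687 of the upregulated and 624 of the downregulated genes, and they did not overlap for 54.2% of all genes tested.

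**Figure D1:**
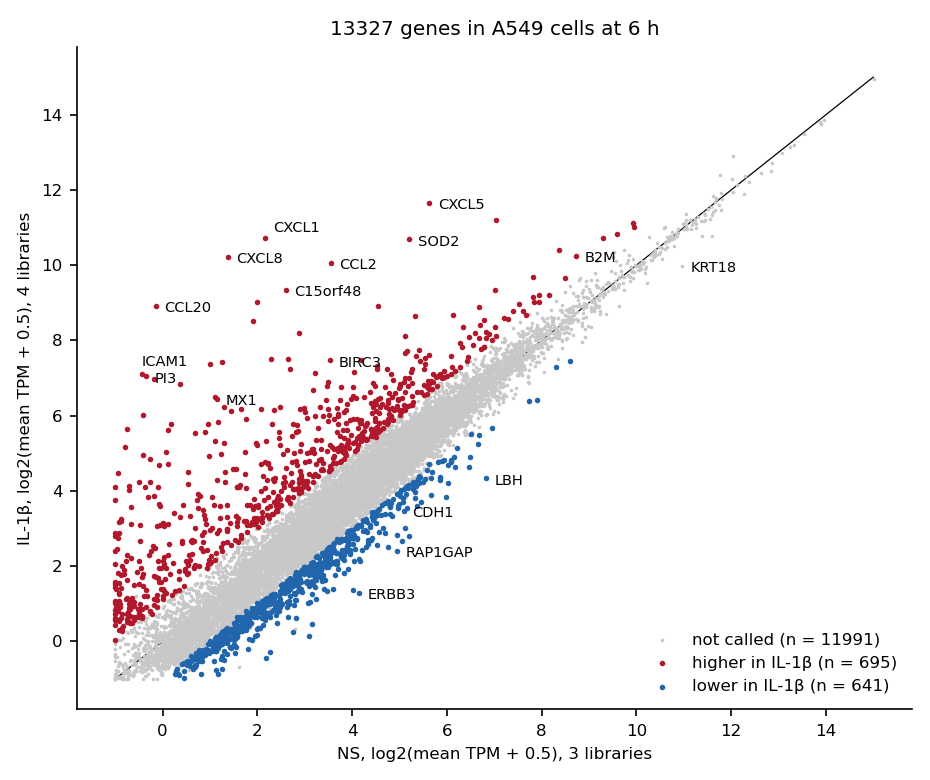
Mean mRNA level of each of the 13327 genes tested, as log2 of the mean TPM plus 0.5, with IL-1β (4 libraries) on the vertical axis and NS (3 libraries) on the horizontal axis, both at 6 h. The 695 upregulated genes reach far above the line of equality, whereas the 641 downregulated genes lie closer below it.

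**Figure D2:**
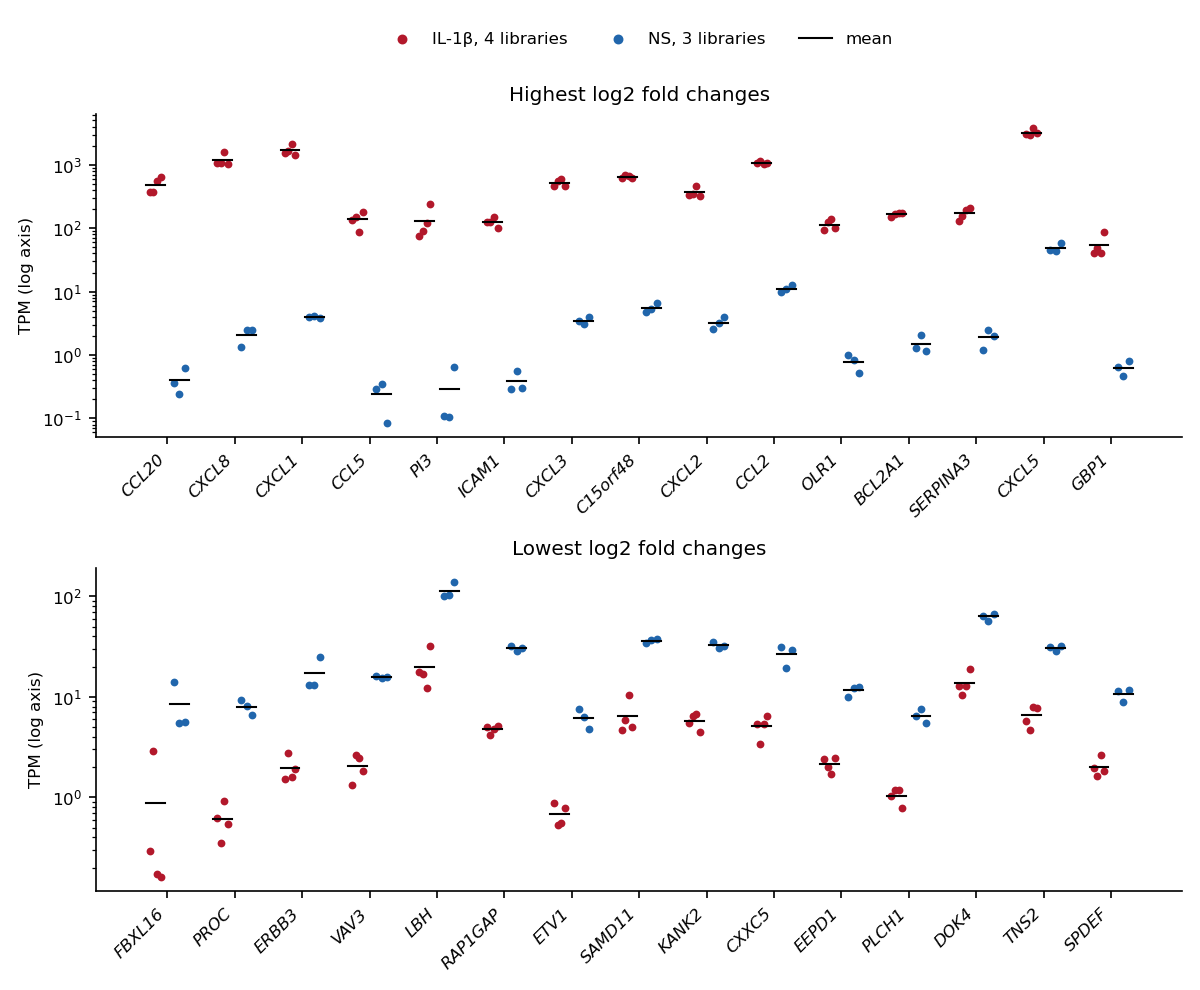
TPM in each library at 6 h (log axis) for the 15 highest and 15 lowest log2 fold changes, with IL-1β (red, 4 libraries) left of NS (blue, 3 libraries) and a bar at each group mean. The rule for ranking required groups that do not overlap, and FBXL16 has 1 IL-1β library, at 2.92 TPM, far above the other 3.

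Neutrophil-attracting chemokines had the highest median of the lists, 6.62 on the log2 scale. All 7 of these CXCR1 and CXCR2 ligands were upregulated, and their summed level was 6383 to 8568 TPM in IL-1β cells and 56.9 to 71.9 TPM in NS cells. CXCL8, the prototype of these ligands, stood at 1053, 1070.2, 1610.3 and 1012 TPM in IL-1β cells, against 1.31, 2.46 and 2.51 TPM in NS cells. CXCL1 stood at 1549.5, 1646, 2119 and 1451 TPM in IL-1β cells, against 3.92, 4.16 and 3.88 TPM in NS cells. CXCL5 was the most abundant, at 3047, 2968, 3761 and 3118 TPM in IL-1β cells, against 45.8, 43.9 and 57.4 TPM in NS cells. IL-1β replicate 3 was the highest of its group for each of these, and every IL-1β library lay far above every NS library. The log2 fold change in limma was 8.85 ± 0.24 for CXCL8 (adjusted p = 2.35e-40), 8.54 ± 0.18 for CXCL1 (adjusted p = 1.67e-45) and 6.03 ± 0.17 for CXCL5 (adjusted p = 3.52e-39). CXCL3 (7.02 ± 0.19), CXCL2 (6.62 ± 0.19) and CXCL6 (5.35 ± 0.24) followed. CXCL1, CXCL2 and CXCL3 are close in sequence, so the split of reads between them is uncertain. PPBP, mainly a platelet chemokine, stayed scarce at 0.445 to 1.21 TPM in IL-1β cells and 0.0356 to 0.0716 TPM in NS cells (1.21 ± 0.17).

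Chemokines for other leukocytes were upregulated in 8 of the 10 tested of 15 listed. Here as in every list, a gene could pass the filter on low values through its IL-1β libraries alone. CCL20, the CCR6 ligand that attracts dendritic cells and Th17 cells, had the highest log2 fold change of the ranked genes. It stood at 374, 368, 558 and 643 TPM in IL-1β cells, against 0.368, 0.242 and 0.614 TPM in NS cells (9.04 ± 0.36, adjusted p = 1.48e-31). CCL2, the monocyte attractant, was even from library to library, at 1069.5, 1132, 1023 and 1077 TPM in IL-1β cells, against 9.74, 11.1 and 12.8 TPM in NS cells (6.53 ± 0.17). CCL5, a T cell attractant, stood at 136, 149, 85.7 and 179 TPM in IL-1β cells, against 0.289, 0.349 and 0.0860 TPM in NS cells (7.51 ± 0.31). CXCL10, an interferon-inducible CXCR3 ligand, was listed at 0 in all NS libraries and stood at 4.77, 3.95, 5.44 and 11.7 TPM in IL-1β cells, where replicate 4 was highest. The monocyte attractant CCL8 was also listed at 0 in NS cells and at 1.04 to 2.55 TPM in IL-1β cells, and CXCL11, another CXCR3 ligand, was at 0.613 to 2.45 TPM in IL-1β cells and 0 to 0.0686 TPM in NS cells. CXCL16 and CCL26 were not called, with log2 fold changes of -0.02 and -0.67.

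Of 29 cytokines and growth factors listed, 25 were tested, 20 were upregulated and 0 were downregulated, with a median of 1.83. IL6, the inducer of the acute phase response, was at 10.4, 12.9, 16.2 and 12.5 TPM in IL-1β cells and was listed at 0 in all NS libraries. CSF3, which encodes the granulocyte growth factor G-CSF, was at 10.9, 14.8, 32.5 and 7.97 TPM in IL-1β cells and also listed at 0 in NS cells. For these genes a fold change has no base, and the IL-1β libraries of CSF3 differed widely among themselves. LTB, a membrane-bound TNF family cytokine, had a log2 fold change of 5.49 ± 0.27, IL32 of 4.92 ± 0.27 and EBI3, a subunit of IL-27 and IL-35, of 4.61 ± 0.26. The genes of IL-1 itself were upregulated too. IL1B was at 7.91, 8.06, 11.9 and 17.6 TPM in IL-1β cells, against 0.100, 0.0985 and 0.192 TPM in NS cells, and IL1A had a log2 fold change of 4.12 ± 0.19. The smallest called changes were those of IL15 (1.01 ± 0.13), which supports T and NK cells, and CLCF1 (1.04 ± 0.11), an IL-6 family cytokine, and IL18 was not called (0.11). With the replicate number as a block IL15 was not called (0.98).

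Of 17 tested genes of the IL-1 receptor and its proximal signaling (19 listed), 2 were upregulated (11.8%, where 5.21% of all genes tested were) and 0 downregulated, with a median of 0.12. These were IRAK2, a kinase gene of the receptor complex (3.80 ± 0.11), and IRAK3, a negative regulator of the same family, at 0.723 to 1.51 TPM in IL-1β cells and 0.00973 to 0.0959 TPM in NS cells. IL1R1, the signaling receptor, was at 13.9, 13.0, 14.9 and 15.1 TPM in IL-1β cells, against 20.0, 22.4 and 24.8 TPM in NS cells. The groups did not overlap, as for 54.2% of all genes tested, but the log2 fold change of -0.63 ± 0.25 was under the threshold. MYD88, TRAF6 and MAP3K7 were not called (0.86, 0.37 and 0.31).

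NF-κB subunits differed among themselves. NFKB2 (3.30 ± 0.16), RELB (3.28 ± 0.16), NFKB1 (2.09 ± 0.17) and the kinase gene MAP3K8 (2.41 ± 0.12) were upregulated, 4 of 10 tested. RELA (0.65), REL (0.48), the IKK genes CHUK (0.53), IKBKB (0.39) and IKBKG (0.41), and MAP3K14 (0.01) were not called.

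Feedback genes of NF-κB were upregulated in 16 of 20, with a median of 1.42 and 0 downregulated. TNFAIP3, which encodes the ubiquitin-editing enzyme A20, was at 74.7, 83.3, 100.4 and 97.4 TPM in IL-1β cells, against 1.37, 1.93 and 1.64 TPM in NS cells (5.38 ± 0.25, adjusted p = 1.02e-27). NFKBIA, which encodes IκBα, was at 267, 281, 304 and 258 TPM in IL-1β cells, against 40.3, 30.4 and 31.5 TPM in NS cells (3.01 ± 0.12). TNIP1, which encodes an A20-binding protein, was even between libraries, at 399, 399, 393 and 414 TPM in IL-1β cells, against 39.5, 40.3 and 38.6 TPM in NS cells. ZC3H12A, a ribonuclease gene that degrades cytokine mRNAs, reached 3.56 ± 0.20. N4BP1 (1.02 ± 0.14) and TRAF3 (1.03 ± 0.14), both restraints on NF-κB signaling, were only just called, and ZFP36, a gene of cytokine mRNA decay, was not (0.03).

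BIRC3 and BIRC2, neighbouring genes for the inhibitor of apoptosis proteins cIAP2 and cIAP1 that ubiquitinate components of this pathway, were both upregulated. BIRC3 was at 181, 183, 169 and 177 TPM in IL-1β cells, against 10.9, 12.2 and 10.1 TPM in NS cells (3.94 ± 0.18, adjusted p = 5.41e-28). BIRC2 was at 66.9, 60.5, 53.8 and 56.8 TPM in IL-1β cells, against 26.4, 29.0 and 24.3 TPM in NS cells (1.15 ± 0.14, adjusted p = 3.21e-10). The groups did not overlap for either gene, as for 54.2% of all genes tested. BIRC2 had the higher level in NS cells and the lower level in IL-1β cells. The log2 response at 6 h minus that at 2 h was -0.88 ± 0.25 for BIRC3 and -0.87 ± 0.19 for BIRC2, neither of which reached the size needed for a call.

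**Figure D3:**
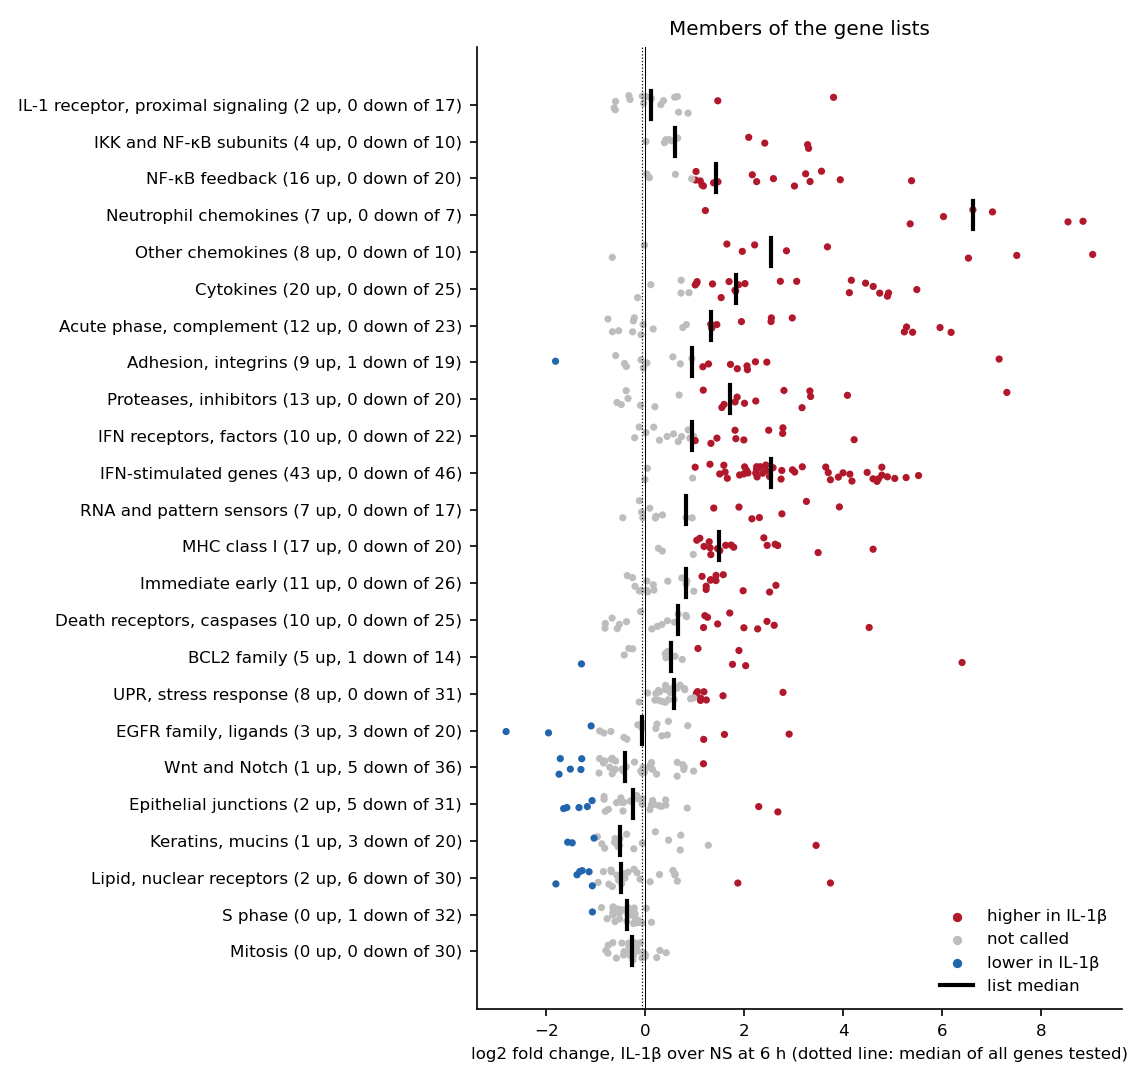
Log2 fold change at 6 h, IL-1β over NS, of every tested member of 24 gene lists, with upregulated genes in red, downregulated genes in blue, genes not called in gray, a bar at the list median and a dotted line at the median of all genes (-0.07). Neutrophil-attracting chemokines have the highest median (6.62) and interferon-stimulated genes the most called members (43).

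Interferon-stimulated genes were the list with the most called members. Of 46 listed, all were tested and 43 were upregulated, with 0 downregulated and a median log2 fold change of 2.55. Their sum was 1572, 1645, 2141 and 2586 TPM in IL-1β cells, against 340.3, 335 and 359 TPM in NS cells. MX1, a GTPase gene that restricts influenza virus, was at 63.8, 67.9, 95.9 and 121 TPM in IL-1β cells, against 1.87, 1.20 and 2.12 TPM in NS cells (5.27 ± 0.30, adjusted p = 3.10e-23). ISG15, a ubiquitin-like modifier gene, was at 51.3, 54.6, 79.8 and 103 TPM in IL-1β cells, against 2.14, 2.77 and 3.01 TPM in NS cells (4.48 ± 0.28). IFIT1, which encodes a protein that binds viral RNA, was at 32.5, 29.8, 53.3 and 68.7 TPM in IL-1β cells, against 1.10, 1.19 and 1.01 TPM in NS cells (4.78 ± 0.30). OASL, related to the oligoadenylate synthetases, reached 5.04 ± 0.25.

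The spread between IL-1β cultures was wide for these genes. Replicates 3 and 4 were both above replicates 1 and 2 for 36 of the 43, against 18.8% of all genes tested and 38.0% of all upregulated genes. GBP1, a guanylate-binding protein gene with the highest log2 fold change of the list (5.52 ± 0.32), was at 41.1, 48.1, 40.3 and 86.2 TPM in IL-1β cells, against 0.648, 0.462 and 0.791 TPM in NS cells. GBP5 (1.31 ± 0.17) and IFITM3 (1.01 ± 0.21) had the smallest called changes, and IFITM3 was not called with the replicate number as a block (0.90). IFITM1 and IFITM2, close copies of IFITM3, were not called in either fit (0.04 and -0.01). The GBP, IFIT and IFITM families hold similar sequences, so reads could be divided unevenly among their members.

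Interferon genes themselves were close to 0. IFNB1 was at 0.0620, 0.0634, 0.191 and 0 TPM in IL-1β cells and listed at 0 in all NS libraries, and IFNL1, IFNL2 and IFNL3 did not exceed 0.0757 TPM in any of the 7 libraries. None of these 4 genes passed the filter on low values. Of the 22 receptor, kinase and factor genes tested, 10 were upregulated, among them IRF7, an amplifier of interferon genes (4.22 ± 0.24), IRF1 (2.78 ± 0.15), the interferon-γ receptor gene IFNGR1 (2.78 ± 0.13), IRF9 (2.49 ± 0.16) and STAT2 (1.33 ± 0.18). IRF3 (-0.13) and STAT3 (0.44) were not called. IRF7 was at 34.7, 33.2, 48.2 and 43.1 TPM in IL-1β cells, against 1.22, 1.71 and 2.06 TPM in NS cells, with IL-1β replicates 3 and 4 again the highest.

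Sensors of foreign nucleic acids and their partners were upregulated in 7 of 17 tested (23 listed). IFIH1, the RNA sensor MDA5, was at 24.7, 24.8, 27.6 and 43.0 TPM in IL-1β cells, against 1.25, 1.42 and 1.74 TPM in NS cells (3.92 ± 0.29). DDX58, the RNA sensor RIG-I, was at 29.5, 29.9, 40.2 and 53.3 TPM in IL-1β cells, against 3.12, 3.57 and 3.64 TPM in NS cells (3.26 ± 0.22). For both genes IL-1β replicate 4 was the highest. The kinase genes IKBKE (2.76 ± 0.14) and RIPK2 (2.31 ± 0.09), the double-stranded RNA receptor gene TLR3 (2.15 ± 0.27), NOD2, a sensor of bacterial peptidoglycan (1.89 ± 0.21), and DHX58 (1.38 ± 0.21) also rose. The adaptor gene MAVS was not called (-0.05).

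Genes of MHC class I antigen presentation were upregulated in 17 of 20 tested, with a median of 1.48. HLA-B was at 141, 134, 132 and 192 TPM in IL-1β cells, against 4.59, 4.14 and 9.17 TPM in NS cells (4.60 ± 0.39). B2M, the invariant light chain, was at 1228, 1070.4, 1253 and 1295 TPM in IL-1β cells, against 427, 404 and 446 TPM in NS cells (1.51 ± 0.11). HLA-F reached 3.49 ± 0.60. Classical HLA genes share sequence, so their values depend on how reads were divided. The peptide transporter gene TAP1 (2.68 ± 0.13), the immunoproteasome gene PSMB9 (2.40 ± 0.28) and the class I transactivator NLRC5 (2.62 ± 0.29) were upregulated, the proteasome activator gene PSME1 was just called (1.04 ± 0.09), and the general chaperone genes CALR and PDIA3 were not called (0.34 and 0.26).

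Genes of the acute phase and complement were upregulated in 12 of 23 tested, with 0 downregulated. SERPINA3, a serine protease inhibitor of the acute phase, was at 131, 157, 191 and 205 TPM in IL-1β cells, against 1.19, 2.51 and 2.00 TPM in NS cells (6.18 ± 0.24). LCN2, which encodes an iron-siderophore binding protein, was at 320.4, 319, 377 and 165 TPM in IL-1β cells, against 7.59, 7.56 and 5.40 TPM in NS cells, with replicate 4 the lowest of the IL-1β libraries. SAA1 was at 35.2, 37.3, 28.2 and 39.9 TPM in IL-1β cells, against 0, 0 and 0.238 TPM in NS cells, but SAA1 and SAA2 are near-identical copies. SAA2 had a log2 fold change of 5.40 ± 0.32. The complement genes CFB (5.24 ± 0.21), C3 (2.97 ± 0.33) and C1R (1.34 ± 0.18) were upregulated, as was the elastase inhibitor gene SERPINA1 (1.32 ± 0.43). The fibrinogen genes FGA, FGB and FGG, acute phase genes in hepatocytes, were not called (-0.76, -0.54 and -0.67).

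PTGS2, which encodes the inducible cyclooxygenase COX-2, was at 388, 463, 673 and 418 TPM in IL-1β cells, against 22.4, 22.1 and 23.9 TPM in NS cells (4.35 ± 0.33). PTGES (1.36 ± 0.19) and the phospholipase genes PLA2G4A (1.29 ± 0.24) and PLA2G4C (1.36 ± 0.25) made up the rest of the 4 upregulated of 10 tested prostaglandin genes. HPGD, which degrades prostaglandins, was not called (-0.22).

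ICAM1, the ligand of leukocyte β2 integrins, was at 123, 127, 150.1 and 101 TPM in IL-1β cells, against 0.293, 0.567 and 0.301 TPM in NS cells (7.15 ± 0.28, adjusted p = 2.19e-31). SELE and VCAM1, better known from endothelium, were listed at 0 in NS cells and reached only 2.04 to 2.48 TPM and 1.16 to 2.13 TPM in IL-1β cells. The checkpoint ligand gene CD274 (2.23 ± 0.31) and the hyaluronan receptor gene CD44 (1.16 ± 0.16) were also upregulated. Of 19 adhesion and integrin genes tested, 9 were upregulated and 1 was downregulated. That gene was ITGB4, the hemidesmosomal integrin chain, at 13.1, 14.3, 9.92 and 19.8 TPM in IL-1β cells, against 52.3, 42.3 and 57.0 TPM in NS cells (-1.82 ± 0.21).

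Proteases and their inhibitors were upregulated in 13 of 20 tested (25 listed). PI3, which encodes the neutrophil elastase inhibitor elafin, was at 76.3, 90.8, 119 and 239 TPM in IL-1β cells, against 0.108, 0.106 and 0.651 TPM in NS cells (7.31 ± 0.47), with IL-1β replicate 4 well above the others. The stromelysin gene MMP10 reached 4.09 ± 0.24, and MMP3, another stromelysin, was listed at 0 in NS cells and at 3.03 to 7.27 TPM in IL-1β cells. The urokinase gene PLAU (2.23 ± 0.30), the serpin gene SERPINB8 (3.17 ± 0.20), the antileukoprotease gene SLPI (1.55 ± 0.46) and the TNF-converting enzyme gene ADAM17 (1.17 ± 0.21) were upregulated, whereas TIMP1 was not called (0.19).

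Several abundant upregulated mRNAs have roles in mitochondria and in metal handling. SOD2, the mitochondrial manganese superoxide dismutase, was at 1525, 1617, 1725 and 1721 TPM in IL-1β cells, against 35.7, 34.3 and 39.5 TPM in NS cells (5.48 ± 0.22). It led the redox and metal list, of which 8 of 30 tested were upregulated, including the zinc importer gene SLC39A8 (1.94 ± 0.21), the iron transporter gene SLC11A2 (59.5 to 73.9 TPM in IL-1β cells and 21.4 to 25.4 TPM in NS cells), the transferrin receptor gene TFRC (1.10 ± 0.26) and the metallothionein gene MT2A (1.13 ± 0.32). C15orf48, which encodes a mitochondrial paralog of the respiratory subunit NDUFA4, was at 626, 692, 656 and 611 TPM in IL-1β cells, against 4.78, 5.22 and 6.65 TPM in NS cells (6.75 ± 0.29, adjusted p = 1.37e-29). NDUFA4 itself was at 366, 367, 379.9 and 384 TPM in IL-1β cells, against 403, 402 and 402 TPM in NS cells. The groups did not overlap for NDUFA4, as for 54.2% of all genes tested, and its log2 fold change of -0.11 ± 0.09 was not called. Of the 36 other genes of that list, which are NDUFA4 and genes of complex I, NDUFV2 was the 1 upregulated (1.03 ± 0.11), and with the replicate number as a block it was not called (0.99). OLR1, a scavenger receptor gene for oxidized LDL, was at 92.1, 123, 139 and 101 TPM in IL-1β cells, against 1.01, 0.827 and 0.513 TPM in NS cells (6.48 ± 0.23).

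Of 14 tested BCL2 family genes, which promote or restrain apoptosis, 5 were upregulated, 1 was downregulated and 8 were not called. BCL2A1, an antiapoptotic gene, was at 151, 167, 172 and 172 TPM in IL-1β cells, against 1.27, 2.09 and 1.15 TPM in NS cells (6.40 ± 0.21), and MCL1, also antiapoptotic, had a log2 fold change of 1.06 ± 0.10. The proapoptotic genes BIK, BID and PMAIP1 were upregulated as well (2.03, 1.89 and 1.76), while BMF, proapoptotic too, was downregulated (-1.29). Among death receptors and caspases 10 of 25 tested were upregulated and 0 downregulated. They included TNFRSF9 (4.52 ± 0.21), CASP1 (2.60 ± 0.38), the RANKL decoy receptor gene TNFRSF11B (2.46 ± 0.23), CFLAR, which encodes the caspase-8 inhibitor FLIP (1.99 ± 0.12), the TRAIL receptor gene TNFRSF10A (1.20 ± 0.21) and CASP10 (1.18 ± 0.21). TNFRSF1A, the main TNF receptor gene, was not called (-0.53).

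Genes of the unfolded protein and integrated stress responses were upregulated in 8 of 31, with 0 downregulated and a median of 0.58. ATF4, the factor of the integrated stress response, was at 2016, 2036, 1924 and 2257 TPM in IL-1β cells, against 935, 989.8 and 1043 TPM in NS cells (1.06 ± 0.08). CHAC1, an ATF4 target that degrades glutathione, reached 2.78 ± 0.31, the chaperone gene DNAJB9 1.57 ± 0.20, the asparagine synthetase gene ASNS 1.23 ± 0.18 and MANF 1.03 ± 0.12, whereas DDIT3 and HSPA5 were not called (0.58 and 0.91). With the replicate number as a block MANF was not called (0.99). Immediate early genes had a median of 2.24 at 1 h and 0.83 at 6 h, when 11 of 26 were called up. FOSL1 (2.64 ± 0.15), MAFF (2.51 ± 0.12) and IER3 (1.98 ± 0.12) led them, KLF10 (1.23 ± 0.14) and JUN (1.15 ± 0.18) were the lowest called, and FOS, EGR1 and JUNB were not called (-0.21, 0.03 and 0.16). Of the phosphatases that switch MAPKs off, 4 of 15 in a list with Sprouty genes were upregulated, DUSP5 (1.92 ± 0.16), DUSP16 (1.85 ± 0.41), DUSP10 (1.51 ± 0.17) and DUSP6 (1.29 ± 0.23).

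The 15 ranked downregulated genes were FBXL16, PROC, ERBB3, VAV3, LBH, RAP1GAP, ETV1, SAMD11, KANK2, CXXC5, EEPD1, PLCH1, DOK4, TNS2 and SPDEF, in order from the lowest log2 fold change. RAP1GAP, which encodes a GTPase-activating protein that turns off RAP1, was at 4.98, 4.22, 4.79 and 5.13 TPM in IL-1β cells, against 32.3, 28.7 and 30.5 TPM in NS cells (-2.56 ± 0.13, adjusted p = 5.01e-26). PROC, the protein C anticoagulant gene, was at 0.627, 0.349, 0.918 and 0.548 TPM in IL-1β cells, against 9.20, 8.13 and 6.63 TPM in NS cells (-2.95 ± 0.25, adjusted p = 4.79e-16). LBH, a transcriptional regulator gene of limb and heart development, was at 17.6, 16.8, 12.3 and 31.7 TPM in IL-1β cells, against 100.4, 102 and 137 TPM in NS cells (-2.57 ± 0.31, adjusted p = 1.51e-10), the highest NS level of the 15. FBXL16, an F-box protein gene, was unsteady, at 0.295, 2.92, 0.173 and 0.163 TPM in IL-1β cells, against 14.0, 5.53 and 5.64 TPM in NS cells (-2.95 ± 0.76, adjusted p = 0.00106). In both groups 1 library of FBXL16 lay far above the others.

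Several of these genes act in signaling at the membrane or the cytoskeleton. VAV3, a Rac exchange factor gene, was at 1.32, 2.61, 2.47 and 1.82 TPM in IL-1β cells, against 16.2, 15.4 and 15.6 TPM in NS cells (-2.70 ± 0.24). KANK2, which encodes a talin-binding adaptor, had a log2 fold change of -2.40 ± 0.16, TNS2, a tensin of focal adhesions, of -2.16 ± 0.17, PLCH1, a phospholipase C, of -2.18 ± 0.19 and DOK4, an adaptor of receptor tyrosine kinases, of -2.18 ± 0.17. ETV1, an ETS transcription factor (-2.49 ± 0.26), CXXC5, a zinc finger regulator of Wnt signaling (-2.27 ± 0.20), and SPDEF, an ETS factor of goblet cell differentiation (-2.15 ± 0.20), act in the nucleus. SAMD11 and EEPD1 stood at -2.46 ± 0.20 and -2.20 ± 0.17. The list of small GTPase regulators also held upregulated genes, 6 of 39 tested against 5 downregulated, led by the CDC42 effector genes CDC42EP5 (4.04 ± 0.72) and CDC42EP2 (3.08 ± 0.32) and the exchange factor gene DOCK4 (3.04 ± 0.34).

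Genes of ErbB receptors and their ligands were called in both directions. ERBB3, a receptor for neuregulins, was at 1.53, 2.74, 1.58 and 1.93 TPM in IL-1β cells, against 13.2, 13.2 and 25.1 TPM in NS cells (-2.81 ± 0.54, adjusted p = 1.50e-05), and its partner ERBB2 had a log2 fold change of -1.10 ± 0.19. EGFR was at 57.6, 60.1, 43.4 and 58.5 TPM in IL-1β cells, against 17.7, 18.8 and 16.6 TPM in NS cells (1.60 ± 0.19). Its ligand genes EREG (2.91 ± 0.22) and AREG (1.18 ± 0.16) were also upregulated, and TGFA and HBEGF were not called (-0.06 and 0.44). FGFR3 was downregulated (-1.96 ± 0.26). In all, 3 of 20 tested genes of this list, which also held other growth factor receptor genes such as FGFR3, were upregulated, 3 downregulated and 14 not called.

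Of 36 Wnt and Notch genes tested (41 listed), 5 were downregulated and 1 was upregulated, WNT5A (1.17 ± 0.24). Those downregulated were the Wnt receptor gene FZD2 (-1.74 ± 0.15), the Notch glycosyltransferase gene LFNG (-1.72 ± 0.13), the ubiquitin ligase gene RNF43 that removes Wnt receptors (-1.52 ± 0.22), the Notch ligand gene JAG2 (-1.30 ± 0.17) and the R-spondin receptor gene LGR4 (-1.29 ± 0.23). In the TGF-β, BMP and ID list of 30 tested, SMAD6, an inhibitor of BMP signaling (-1.34 ± 0.13), and the receptor gene TGFBR2 (-1.12 ± 0.13) were downregulated, and the ubiquitin ligase gene SMURF2 (1.55 ± 0.19) and the activin antagonist gene FST (1.35 ± 0.40) were upregulated. Each direction held 6.67% of that list, near the shares of all genes tested (5.21% up and 4.81% down). With the replicate number as a block GREM1, a BMP antagonist gene, was called down as well (-1.27).

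Epithelial junction genes gave 5 downregulated and 2 upregulated of 31 tested. CDH1, which encodes E-cadherin, was at 5.94, 12.5, 8.76 and 15.0 TPM in IL-1β cells, against 23.1, 30.8 and 47.6 TPM in NS cells (-1.65 ± 0.44, adjusted p = 0.00154), a fall with a wide spread in both groups. The tight junction and polarity genes CGN, CRB3 (-1.34 ± 0.32) and CLDN3 (-1.17 ± 0.20) and the desmosomal gene PKP3 (-1.08 ± 0.24) were downregulated. CLDN1 (2.29 ± 0.13) and the connexin gene GJB2 (2.68 ± 0.18) were upregulated, and OCLN, TJP1 and DSP were not called (0.12, 0.32 and -0.06).

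KRT18, a keratin of simple epithelium, was at 1040.0, 884, 872 and 1272 TPM in IL-1β cells, against 1810.4, 1687 and 2499 TPM in NS cells. The groups did not overlap, as for 54.2% of all genes tested, but its log2 fold change of -0.97 ± 0.18 was just under the threshold. Of 20 keratin, mucin and trefoil genes tested (27 listed), KRT80 (-1.57 ± 0.31), KRT4 (-1.48 ± 0.20) and KRT19 (-1.04 ± 0.23) were downregulated and TFF1, a trefoil peptide gene, was upregulated (3.45 ± 0.39). With the replicate number as a block KRT19 was not called (-0.92) and KRT6A was called up (1.53). All 6 epithelial markers had a log2 fold change below 0, from -0.62 for KRT7 to -1.65 for CDH1, with 2 called, or 1 with the block, and their sum was 3884 to 5539 TPM in IL-1β cells and 6954 to 9315 TPM in NS cells. In bulk RNA of this 1 line, a change in all cells and a change in some of them cannot be told apart.

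Many markers of other cell types were too scarce to be tested. Of 12 immune cell markers 4 were tested and 1 was upregulated, the integrin gene ITGAM (1.48 ± 0.35), with a sum over all 12 of 18.8 to 22.9 TPM in IL-1β cells and 14.1 to 14.9 TPM in NS cells. The 4 tested made up most of it, with 18.0 to 22.5 TPM in IL-1β cells and 12.9 to 14.2 TPM in NS cells. PTPRC, the pan-leukocyte gene, stayed at 0.102 to 0.520 TPM in IL-1β cells and 0.114 to 0.216 TPM in NS cells. Of 12 fibroblast and endothelial markers 5 were tested, the collagen gene COL1A1 was downregulated (-1.56 ± 0.26) and the endothelial cadherin gene CDH5 was upregulated (1.04 ± 0.14). Of 13 surfactant and alveolar markers, most of them of type II cells, 7 were tested, and LAMP3, a lysosomal membrane gene, was upregulated (3.03 ± 0.16) and the protease gene NAPSA downregulated (-1.06 ± 0.17). Among lineage factors SOX2 (1.65 ± 0.45) and ZEB2 (1.28 ± 0.29) were upregulated and the hepatocyte nuclear factor gene HNF4A (7.29 to 10.4 TPM in IL-1β cells and 14.8 to 21.5 TPM in NS cells) was downregulated, of 23 tested. Each direction held 8.70% of these factors, where 5.21% of all genes tested were upregulated and 4.81% downregulated.

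Several nuclear receptor genes were downregulated. In a list of 30 tested lipid droplet and nuclear receptor genes (34 listed), 6 fell, the thyroid hormone receptor gene THRA (-1.81 ± 0.14), the orphan receptor genes NR2F2 (-1.38 ± 0.20) and NR2F1 (-1.28 ± 0.21), the retinoic acid receptor genes RARG (-1.14 ± 0.14) and RARB (-1.07 ± 0.19), and the lipid droplet gene CIDEC (-1.33 ± 0.40). THRA was at 4.54, 4.69, 4.99 and 6.46 TPM in IL-1β cells, against 20.4, 17.6 and 19.7 TPM in NS cells. VDR, the vitamin D receptor gene (1.87 ± 0.21), and G0S2, an inhibitor of lipolysis (3.74 ± 0.23), were upregulated. NR3C1, the glucocorticoid receptor gene, was not called (-0.37). Of 22 tested genes of the receptor and its targets, BIRC3, HSD11B1, which reactivates cortisol (4.52 to 9.13 TPM in IL-1β cells and 0 to 0.0559 TPM in NS cells), and the lipid transporter gene MFSD2A (1.38 ± 0.23) were upregulated, and the sodium channel gene SCNN1A was downregulated (-1.06 ± 0.27). Of that list 13.6% were upregulated and 4.55% downregulated, where 5.21% and 4.81% of all genes tested were. Of 19 clock genes the output gene DBP was downregulated (-1.98 ± 0.27), at 0.309 to 0.475 TPM in IL-1β cells and 2.60 to 3.69 TPM in NS cells, and ARNTL2, a partner of CLOCK, was upregulated (1.77 ± 0.23). Each direction held 5.26% of the clock genes, near the shares of all genes tested.

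Of 32 S phase genes 1 was called, CDT1, a licensing factor of replication (-1.07 ± 0.19), with a list median of -0.36, and 0 of 30 mitosis genes were called by limma (median -0.27). The CDK inhibitor gene CDKN2C was downregulated (-1.95 ± 0.12), at 5.97, 5.21, 5.37 and 5.11 TPM in IL-1β cells, against 22.8, 21.5 and 22.7 TPM in NS cells. TXNIP, an inhibitor of glucose uptake (-1.63 ± 0.55), and GADD45B (-1.02 ± 0.26) were also downregulated among the G1 and growth restraint genes, and the kinase gene PLK2 was upregulated (1.32 ± 0.19). With the replicate number as a block GADD45B was not called (-0.997).

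Of 30 cholesterol and fatty acid synthesis genes 2 were downregulated and 0 upregulated, or 3 downregulated with the replicate number as a block. MVK, a kinase gene of cholesterol synthesis, was among them (-1.07 ± 0.11), and SREBF1, a factor gene of lipid synthesis, was called with the block alone (-1.01). In the main fit 6.67% of this list was downregulated, near the 4.81% of all genes tested. Among gene families taken by symbol, 12 of 397 zinc finger genes were downregulated and 0 upregulated, led by ZNF362 (-1.42 ± 0.36) and ZNF488 (-1.40 ± 0.22). That share of falls, 3.02%, was below the 4.81% of all genes tested. Of 246 genes with a solute carrier symbol, 18 were upregulated (7.32%) and 20 downregulated (8.13%), where 5.21% and 4.81% of all genes tested were. Those upregulated were led by SLC2A6 (2.67 ± 0.15), SLC15A3 (2.63 ± 0.24) and SLC6A14 (2.61 ± 0.37), and those downregulated by SLC40A1 (-1.52 ± 0.40) and SLC9A3R2 (-1.50 ± 0.20). The symbol alone does not make each of them a carrier. Of 48 tripartite motif genes 6 were upregulated, led by TRIM31 (4.02 ± 0.52), TRIM21 (2.38 ± 0.13) and TRIM25 (2.05 ± 0.31), and 3 downregulated, TRIM9 (-2.01 ± 0.22), TRIM6 (-1.69 ± 0.21) and TRIM45 (-1.36 ± 0.18). Those made up 12.5% and 6.25% of the family, where 5.21% and 4.81% of all genes tested were called up and down. None of the 79 ribosomal protein genes was called, with log2 fold changes between -0.27 and 0.48. Of 13 reference genes 12 lay between -0.31 and 0.36, and TFRC was the exception.

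The response at 6 h was then set against those at 2 h and 12 h, each being IL-1β over NS of the same time. Relative to 2 h it was higher for 334 genes (2.51%) and lower for 358 (2.69%), and relative to 12 h it was higher for 166 (1.25%) and lower for 125 (0.938%). Both differences use the 7 libraries of 6 h. Of the 695 genes upregulated at 6 h, 259 were also called up at 2 h, 396 at 12 h and 61 at all 5 times, while 205 were called up at no other time. Of the 641 downregulated, 26 were called down at 2 h and 213 at 12 h, 387 were called down at no other time and 0 at all 5 times.

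**Figure D4:**
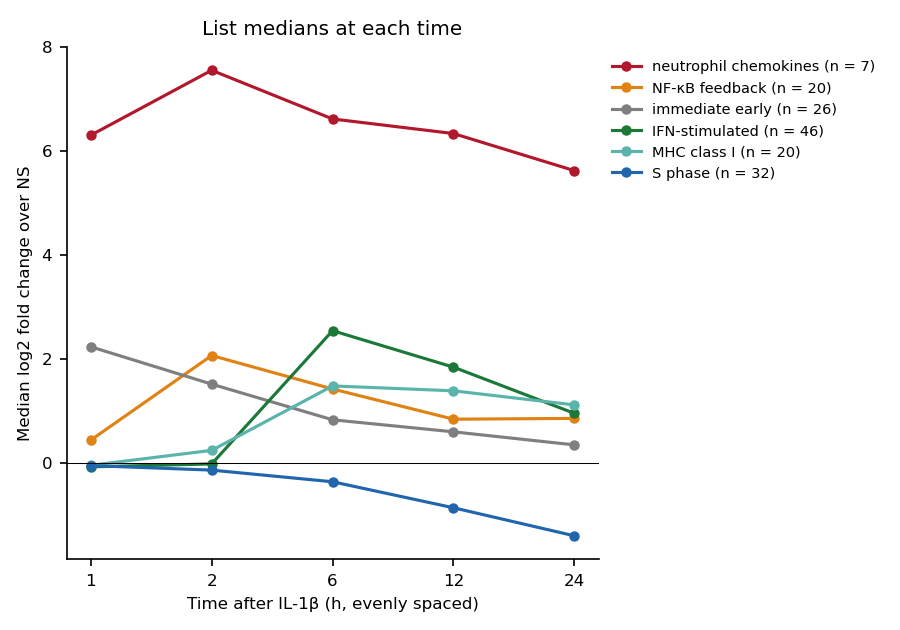
Median log2 fold change, IL-1β over NS, of 6 gene lists at 1, 2, 6, 12 and 24 h (times evenly spaced). Immediate early genes have their highest median at 1 h (2.24), NF-κB feedback genes and neutrophil-attracting chemokines at 2 h (2.07 and 7.56), and interferon-stimulated and MHC class I genes at 6 h (2.55 and 1.48).

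Among genes called at 6 h, the 8 with the largest excess of the response at 6 h over that at 2 h were all interferon-stimulated genes. Their list median was -0.02 at 2 h and 2.55 at 6 h, the difference was called for 42 of 46, and 21 were also higher at 6 h than at 12 h. At 2 h MX1 was at 1.33 ± 0.360 TPM in IL-1β cells and 2.21 ± 0.207 TPM in NS cells (SD, 4 libraries each), and the log2 response at 6 h minus that at 2 h was 5.86 ± 0.41 (adjusted p = 9.05e-18 in limma). The same difference was 5.18 for OASL, 4.90 for IFIT1, 4.79 for CMPK2, 4.75 for IFI27, 4.67 for IFI44, 4.61 for OAS2 and 4.50 for ISG15. Ranked genes of other kinds were also higher at 6 h than at 2 h, among them PI3 (3.34 ± 0.64), CXCL5 (2.47 ± 0.23) and C15orf48 (2.46 ± 0.40). At 12 h the cultures differed widely. MX1 was then at 36.8 ± 28.2 TPM in IL-1β cells and 1.36 ± 0.278 TPM in NS cells, and IFI27 at 133 ± 81.7 TPM in IL-1β cells and 1.36 ± 0.322 TPM in NS cells.

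A different set of immune genes had a smaller response at 6 h than at 2 h. IRF1 was at 391 ± 15.2 TPM in IL-1β cells and 9.51 ± 0.855 TPM in NS cells at 2 h. At 6 h it was at 63.7 ± 11.4 TPM in IL-1β cells and 8.76 ± 0.122 TPM in NS cells, and the difference in log2 response was -2.52 ± 0.20 (adjusted p = 5.06e-16). CD83, an immune surface receptor gene, had a difference of -3.47 ± 0.18, NFKBID, a nuclear IκB gene, of -3.18 ± 0.38, and TNF of -2.91 ± 0.18. TNF was at 1.07 to 1.80 TPM in IL-1β cells and 0 to 0.0348 TPM in NS cells at 6 h. ICAM4, an adhesion ligand gene, and CSF2, which encodes GM-CSF, had differences of -2.78 and -2.53, and CSF2 was listed at 0 in all NS libraries at 6 h, so its difference depends on the pseudocount. All 6 genes were still called up at 6 h. CD83 (1.09 ± 0.13) and NFKBID (1.11 ± 0.28) fell below the size threshold without NS replicate 4 (0.98 and 0.91).

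Compared with 12 h, the 8 largest excesses of the response at 6 h among genes called at 6 h were those of CMPK2 (2.70 ± 0.48), GBP4 (2.64 ± 0.31), PLEKHA4 (2.54 ± 0.38), CYP7B1, an oxysterol hydroxylase gene (2.42 ± 0.35), ICOSLG, a costimulatory ligand gene (2.34 ± 0.22), CXCL10 (2.29 ± 0.37), the IL-15 receptor gene IL15RA (2.19 ± 0.30) and HELZ2, a helicase gene (2.19 ± 0.32). GBP1 (2.18 ± 0.44), BCL2A1 (2.05 ± 0.29), ICAM1 (1.98 ± 0.39) and CCL20 (1.57 ± 0.49) were also higher at 6 h than at 12 h. GBP4 was at 8.14 ± 2.64 TPM in IL-1β cells and 0.128 ± 0.0708 TPM in NS cells at 6 h. At 12 h GBP4 was at 0.966 ± 0.711 TPM in IL-1β cells and 0.143 ± 0.130 TPM in NS cells. IGFBP1, which binds insulin-like growth factors, and PDZK1IP1 were upregulated at 6 h (1.49 ± 0.37 and 1.61 ± 0.18) but less than at 12 h, by -2.18 ± 0.50 and -1.78 ± 0.25.

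Several falls were deeper at 6 h than at 12 h. TRIM9, a brain-enriched ubiquitin ligase gene, was at 1.15, 0.936, 1.12 and 1.05 TPM in IL-1β cells, against 5.98, 6.16 and 5.23 TPM in NS cells at 6 h. At 12 h TRIM9 was at 5.98 ± 0.694 TPM in IL-1β cells and 5.31 ± 0.746 TPM in NS cells, and the difference in log2 response was -2.17 ± 0.31 (adjusted p = 2.76e-07). LBH (-1.94 ± 0.42), PIK3IP1 (-1.89 ± 0.16), EEPD1 (-1.73 ± 0.24), ETV1 (-1.71 ± 0.35) and KANK2 (-1.64 ± 0.22) likewise had lower log2 responses at 6 h than at 12 h. For RAP1GAP the difference between 6 h and 12 h was 0.02 ± 0.18, and for SPDEF and PROC it was not called (-0.44 and -0.61). PROC was lower at 6 h than at 2 h (-2.38 ± 0.34). FBXL16 had a lower log2 response at 6 h than at 2 h and 12 h (-3.60 ± 1.04 and -3.10 ± 1.04), with the unsteady libraries described above.

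**Figure D5:**
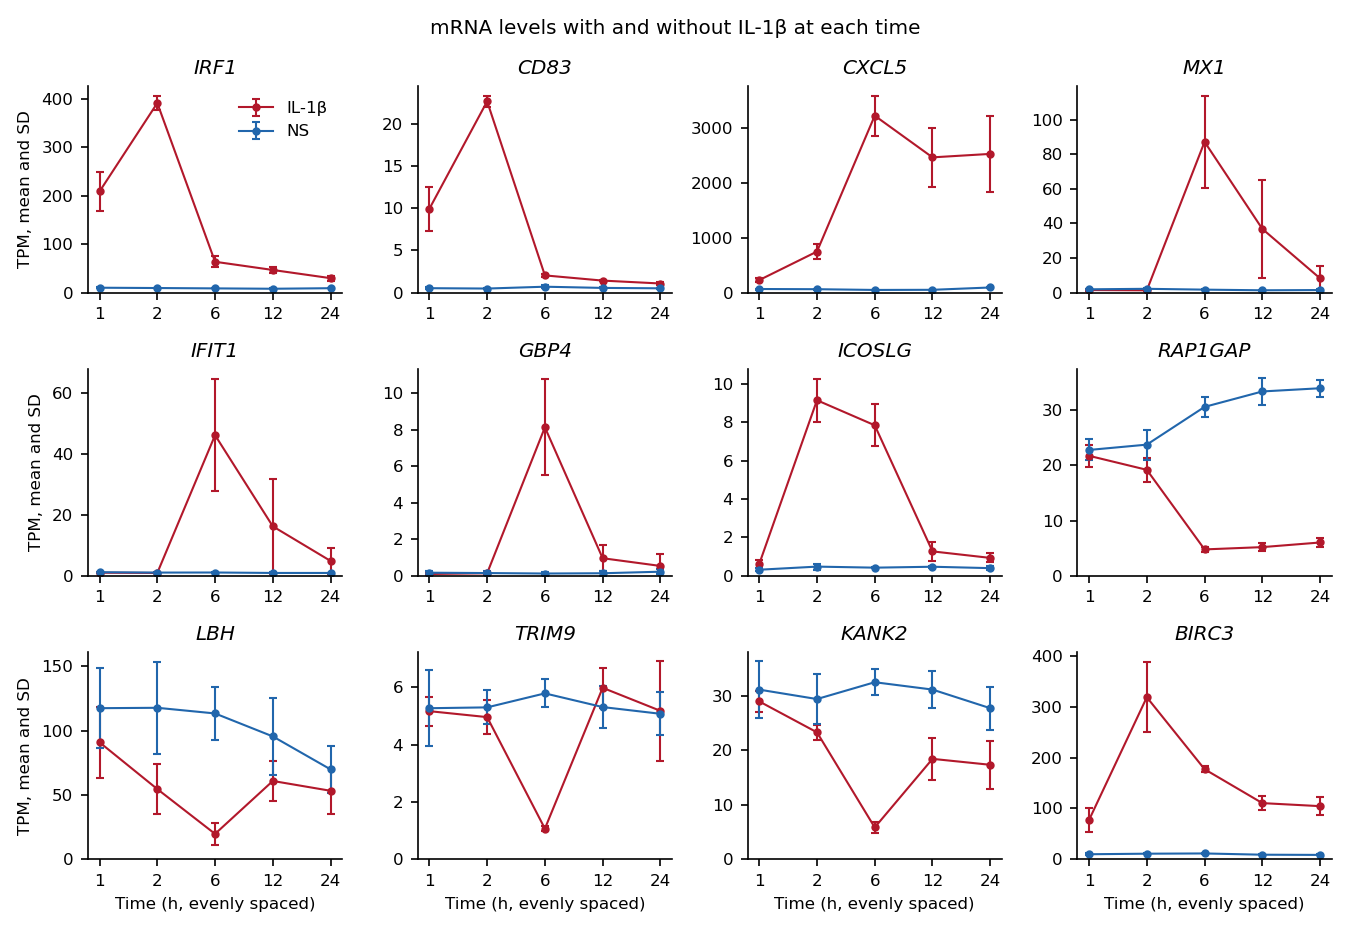
Mean TPM with SD in IL-1β (red) and NS (blue) cells at 1, 2, 6, 12 and 24 h for 12 genes, each on its own axis that starts at 0 (times evenly spaced). In IL-1β cells the mean is highest at 2 h for IRF1, CD83, ICOSLG and BIRC3 and at 6 h for CXCL5, MX1, IFIT1 and GBP4, while TRIM9, LBH and KANK2 are lowest at 6 h and RAP1GAP stays low from 6 h on.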

How the data were processed

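Poly(A) RNA of A549 cells was sequenced with stranded libraries. The authors quantified transcripts with kallisto against GRCh38 (hg38), took gene-level TPM and normalized them between libraries with sleuth, and deposited this normalized signal (tool versions are not given in the sources used here). A second deposited table holds the authors' own log2 fold changes and adjusted p-values, and was not used. The table has 79 libraries, of which 78 matched a label and 1 was not used. The 1 left out is named in the table as NS at 6 h, number 3, and matched no label. All 78 entered limma 3.58.1 (R 4.3.3) on log2(TPM + 0.5), with 1 mean per group (20 groups), empirical Bayes with trend and 58 residual degrees of freedom. Of 19652 genes, 13327 with at least 1 TPM in 3 libraries were tested and 6325 removed, with Benjamini-Hochberg adjustment over all tested. The values carry no counts, so the depth of each library and its counting error could not be computed. In simulated data for the 6 h comparison (13327 genes), the calls took in 0 of 50 genes at a 1.5-fold change, 49 of 50 at 3-fold and 50 of 50 at 4-fold, and 3 genes with no change.

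Members and 45 gene lists were chosen with earlier results of these data known. Genes were named by rule. The 15 highest and 15 lowest log2 fold changes were taken among called genes whose groups did not overlap, with a mean of at least 5 TPM in the higher group and every NS library above 0. With no such minimum, BIRC3 and BIRC2, at least the 3 highest and 2 lowest called members of each list, and the 8 highest and 8 lowest in each difference between times (among genes called in it and at 6 h) were added. Members of a list that were not called were chosen after their values were seen, as were KANK2, RAP1GAP, SPDEF, PROC, GBP1, BCL2A1, ICAM1 and CCL20 for the difference from 12 h, PI3, CXCL5 and C15orf48 for that from 2 h, and GREM1, KRT6A and SREBF1 for the block. Some genes that the rule names are not reported here. Same-numbered IL-1β and NS libraries deviated together (r = 0.129, 0.171 and 0.405 for numbers 1, 2 and 4). Differently numbered pairs had r from -0.260 to 0.094, and numbers 1 and 2 stood little above the highest of these. As the labels speak of independent experiments, the numbers were taken to pair the libraries in the replicate block alone. The main fit did not use this pairing. Alternatives were other pseudocounts, filters and scalings, a fit of the compared groups alone, the replicate block, and leaving out each replicate. Promoter windows came from RefSeq (GRCh38.p14).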

Additional observations from a re-analysis of the deposited data

Results flagged for a closer look

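The IL-1β libraries at 6 h were checked in the 57 genes named by rank, by a difference between times or as BIRC3 and BIRC2. In 4 of the 57 the highest library stood apart from the other 3 by Dixon's criterion. Chance meets that criterion in about 1 in 20 groups, so a few of 57 would meet it by chance. CXCL8 was at 1610 TPM in replicate 3, GBP1 at 86.18 TPM in replicate 4, FBXL16 at 2.923 TPM in replicate 2 and ICOSLG at 9.485 TPM in replicate 3.

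The log2 response to IL-1β, over NS of the same time, differed between 6 h and 2 h by the limma test of the difference for 334 genes that were higher at 6 h and 358 that were lower. Among genes also called at 6 h, the 8 largest excesses were 5.856 for MX1, 5.177 for OASL, 4.899 for IFIT1, 4.79 for CMPK2, 4.751 for IFI27, 4.668 for IFI44, 4.613 for OAS2 and 4.502 for ISG15. The largest deficits were -3.597 for FBXL16 (adjusted p = 0.00888 in limma), -3.473 for CD83, -3.181 for NFKBID, -2.914 for TNF, -2.782 for ICAM4, -2.532 for CSF2, -2.517 for IRF1 and -2.384 for PROC.

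Against 12 h the test of the difference gave 166 genes with a higher and 125 with a lower response at 6 h. Among genes also called at 6 h, the 8 largest excesses were 2.705 for CMPK2, 2.636 for GBP4, 2.536 for PLEKHA4, 2.422 for CYP7B1, 2.341 for ICOSLG, 2.295 for CXCL10, 2.19 for IL15RA and 2.186 for HELZ2. The largest deficits were -3.104 for FBXL16 (adjusted p = 0.0458 in limma), -2.175 for IGFBP1, -2.168 for TRIM9, -1.936 for LBH, -1.894 for PIK3IP1, -1.777 for PDZK1IP1, -1.73 for EEPD1 and -1.709 for ETV1.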

How the results depend on the processing

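With a filter of a mean of at least 5 TPM, 9548 genes were tested and 437 were called up and 326 down at 6 h. The same filter gave 197 higher and 181 lower for 6 h minus 2 h, and 85 higher and 68 lower for 6 h minus 12 h. A pseudocount of 1 gave 415 genes down at 6 h, and a pseudocount of 0.1 gave 1015 down at 6 h and 547 lower for 6 h minus 2 h. Leaving out 1 replicate at a time gave 679 to 720 up and 633 to 687 down at 6 h, 308 to 349 higher and 345 to 380 lower for 6 h minus 2 h, and 147 to 191 higher and 107 to 140 lower for 6 h minus 12 h. With the replicate number as a block, 694 genes were called up and 658 down at 6 h, and 680 and 616 of the main calls were kept. Median-of-ratios scaling moved the median of all genes to -0.02 and gave 738 up and 560 down. Quantile normalization left that median at -0.07 and gave 705 up and 468 down. Of 836 values of 57 genes named by rank, by a difference between times or as BIRC3 and BIRC2, 832 kept their direction and their side of the threshold, and 0 reversed. The other 4 were CD83 (0.84 with a pseudocount of 1, 0.98 without NS replicate 4), NFKBID (0.91 without NS replicate 4) and ICAM4 (0.84 with a pseudocount of 1). Most of the 57 were picked for extreme values, so this stability cannot speak for list members outside them. Among those, IL15, IFITM3, NDUFV2, MANF, KRT19 and GADD45B lost their call with the replicate block. Of 1350 list counts, 86 moved by more than 1.5 times, 18 of them from a main count of at least 3. Except for the stricter filter, which tests fewer genes, the cause of these shifts was not tested. With TPM alone, precision is limited by 4 and 3 libraries a group.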
